A study of Mus musculus with 4 samples.

Results

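Imprinted genes are expressed mainly or only from the copy inherited from the mother or from the copy inherited from the father. The silent copy carries DNA methylation that was set in the egg or sperm, or is silenced by a long noncoding RNA of the same cluster. Many of them control growth, placental function and fat tissue, and because a single copy is active their dose matters. They sit in clusters, and a cluster usually has a shared control region.

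The 38 imprinted genes examined here were taken from a list of gene names, and for each name the row with the highest mean level was used from the table of 30506 rows deposited for the series, of which 22483 carried a gene name. The table holds mammary tissue RNA of 2 wild-type mice (*miR-21+/+*) and 2 mice lacking the microRNA miR-21 in the germ line (*miR-21-/-*), called below glands with and without miR-21. The labels give the strain of all 4 mice as 129SV::FVB/N::C57BL/6 and their age as 2 months, and the animals were virgins. Poly(A) RNA was sequenced as single-end reads, and the level is given as FPKM, a count of sequenced fragments divided by transcript length and by library size. Each genotype has a single FPKM value that combines its 2 mice, so there are no replicate values, the spread between mice is unknown, and no test was run. The number of reads behind a value is also unknown. The deposited row that holds *Mir21* merges it with its overlapping gene *Vmp1*, at 42.5 FPKM with miR-21 and 68.2 FPKM without it (log2 ratio 0.68), and does not measure the loss of the mature microRNA. In whole tissue, fewer cells of a type and less RNA per cell cannot be told apart. The copy from which a transcript came was not measured, and the expressed copy named below is background knowledge.

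Differences are given as log2 FPKM ratios of *miR-21-/-* over *miR-21+/+* glands, as plain ratios of the deposited values. A gene was considered above the minimum if the mean of its genotype values exceeded 1 FPKM, and higher or lower by 2-fold or more if its ratio passed that size. Of the 38 genes, 26 were above the minimum and 12 were not, and the 26 came from all 16 clusters. Among the 26, 9 were higher and 17 were lower in *miR-21-/-* glands, and their median log2 ratio was −0.08. The same median over all 13305 named rows above the minimum was −0.03, with 55.7% of them lower. At 2-fold or more, 2 imprinted genes were higher, *Nnat* and *Mest*, where 1.72% of all named rows were. None was lower by that much, where 2.16% of all named rows were. At 1.5-fold, *Rasgrf1* joined the higher genes to make 3, beside a background of 5.04%. The 2 lower ones, beside 5.84%, were *Rian* and *Mirg*, which lie in the same cluster.

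The other 21 genes differed by less than 1.5-fold, a share of 80.8% against 89.1% of the named rows, and 16 of the 26 lay within 0.25 of 0 on the log2 scale. If both FPKM columns are instead scaled to equal sums over all rows, every log2 ratio shifts by −0.63. That sum turns on the 8023 rows without a gene name, which added up to 378728 FPKM in *miR-21+/+* and 820218 FPKM in *miR-21-/-* libraries, while the named rows added up to 380567 and 355385 FPKM. Under that scaling no imprinted gene was 2-fold higher and 6 were 2-fold lower. The median over all named rows above the minimum became −0.66, beside −0.71 for the imprinted genes. The share of all named rows passing 2-fold was not counted under it, so the 6 cannot be set against a background. *Mest* (0.57), *Nnat* (0.69) and *Rasgrf1* (0.07) were the 3 of 26 that stayed above 0. Scaled to equal sums over named rows, the shift was 0.10, 15 were higher and 11 lower, and the median became 0.02. The directions given below are those of the unscaled values, and only those of *Mest*, *Nnat* and *Rasgrf1* upward and of the genes with a negative unscaled ratio of at least 0.10 in size downward hold under all 3 scalings.

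**Figure D1:**
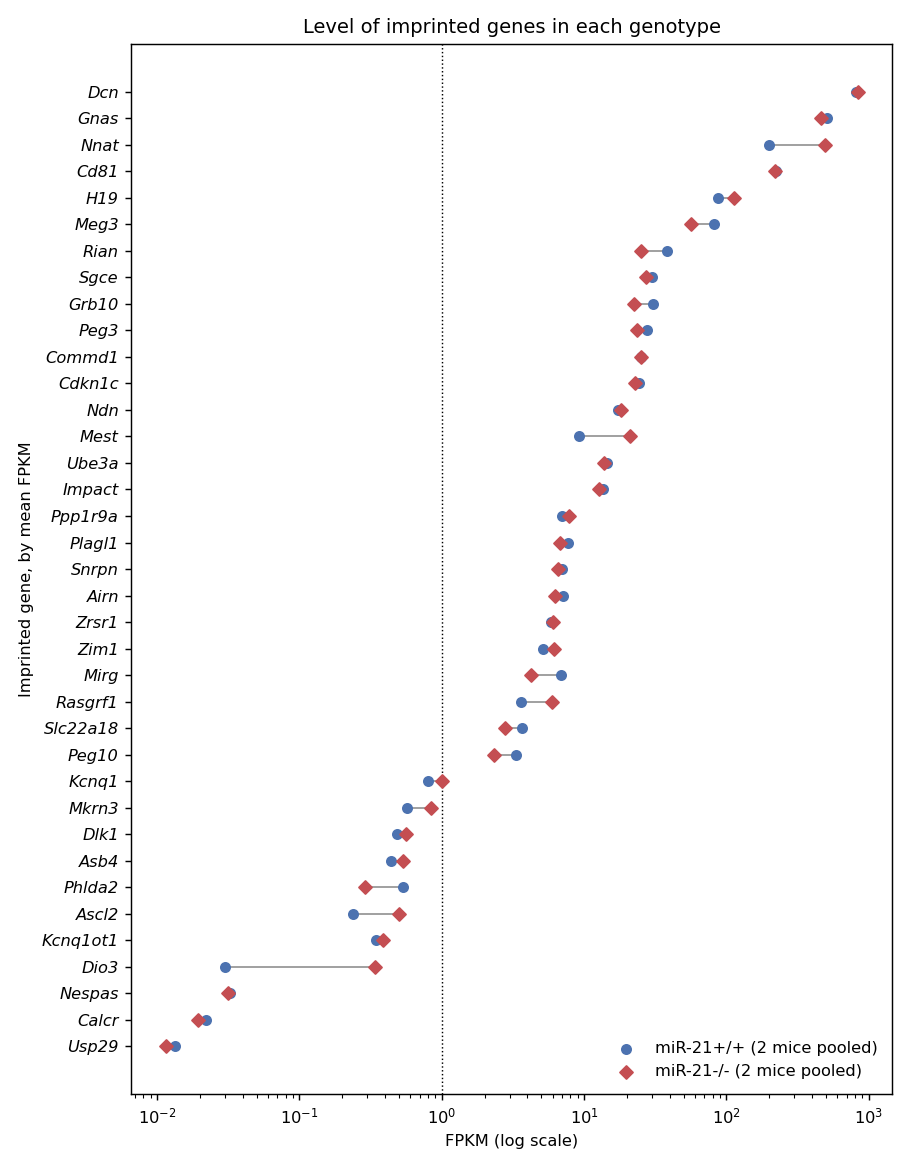
FPKM (log axis) of 37 imprinted genes in *miR-21+/+* (circles) and *miR-21-/-* (diamonds) glands, each point the pooled value of 2 mice, ordered by mean level, with a dotted line at 1 FPKM. *Magel2* is not drawn because it is listed at 0 in both. *Nnat* (199 and 496) and *Mest* (9.21 and 21.1) show the widest gaps above the line, and the gap of *Dio3* lies wholly below it.

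*Nnat* and *Mest*, which belong to a list of 5 imprinted genes tied to fat cells, had the largest log2 ratios of the 26. *Nnat* encodes neuronatin, a small membrane protein of the endoplasmic reticulum that is found in nerve, endocrine and fat cells. Its level was 199 FPKM with miR-21 and 496 FPKM without it, a log2 ratio of 1.32 or 2.49-fold. By level, *Nnat* was the fourth of the imprinted genes with miR-21 and the second without it, after *Dcn*. Among the 546 named rows with a mean above 100 FPKM, 5 had a ratio as high, *Nnat* included, and the middle 95% of their ratios ran from −0.98 to 0.72. *Nnat* (mm9, chromosome 2, 157385814 to 157388258, plus strand) lies wholly inside *Blcap*, which is read from the other strand, and the table gives both the same coordinates, so their reads may not be fully separated. *Blcap*, an apoptosis-related gene, was at 41.5 and 51.7 FPKM, a log2 ratio of 0.32.

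*Mest* (also *Peg1*) encodes a hydrolase-like protein of the endoplasmic reticulum that is expressed in growing mesoderm and known as a marker of expanding fat tissue. It was at 9.21 FPKM with miR-21 and 21.1 FPKM without it, a log2 ratio of 1.20 or 2.30-fold. Of the 4157 named rows between 10 and 30 FPKM, 23 had a ratio as high, *Mest* included, and the middle 95% ran from −0.60 to 0.61. *Mest* (mm9, chromosome 6, 30673547 to 30698457, plus strand) overlaps the end of *Copg2* by 904 bp on the other strand. The table gives *Mest*, *Copg2* and *Mir335* the same coordinates, 30687997 to 30846853, which run past the end of *Mest*, so reads of *Mest* and *Copg2* may not be fully separated. *Copg2* was at 18.1 and 17.3 FPKM, a log2 ratio of −0.06. The ratio of each partner was nearer to 0 than that of the imprinted gene. The library kit named in the methods does not mark strand, and the part of shared reads in these ratios was not tested.

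The remaining genes of the fat list were near even. *Ndn*, which encodes necdin, a protein that restrains fat cell differentiation, was at 17.4 FPKM with miR-21 and 18.3 FPKM without it, a log2 ratio of 0.08. *Peg3*, a zinc finger gene of growth and maternal care, was at 27.7 and 23.6 FPKM, a log2 ratio of −0.23. *Dlk1*, the preadipocyte factor that holds back fat cell formation, was low in both genotypes, at 0.484 and 0.562 FPKM. Over the 4 genes of this list above the minimum, 3 were higher and 1 lower, and the median log2 ratio was 0.64, or 0.01 with both columns scaled to equal sums over all rows. That median rests on *Nnat* and *Mest*, and the list was chosen with earlier results of these data known.

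Most markers of fat cells were lower where *Nnat* and *Mest* were higher. Of 10 adipocyte markers, 9 were lower, the median log2 ratio was −0.36, and their summed level was 19065 FPKM with miR-21 and 14509 FPKM without it. The exception was *Lep*, the gene for leptin, which was at 27.7 and 67.9 FPKM, a log2 ratio of 1.30. *Adipoq*, the gene for adiponectin, was at 1207 and 853 FPKM. Brown fat markers were lower too, in 4 of 4 above the minimum, with a summed level of 226 and 109 FPKM and a median log2 ratio of −1.26. The 10 markers of preadipocytes and fibroblasts had a median of −0.09, with 4 higher and 6 lower. Of 7 markers of Schwann cells and nerve, 2 were higher and 5 lower, with a median of −0.09 and summed levels of 312 and 295 FPKM. The higher ones included *Sox10*, a transcription factor of Schwann cells that mammary epithelium also expresses, at 16.4 and 36.1 FPKM, a log2 ratio of 1.13. The part of any cell type in the levels of *Nnat* and *Mest* was not tested.

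**Figure D2:**
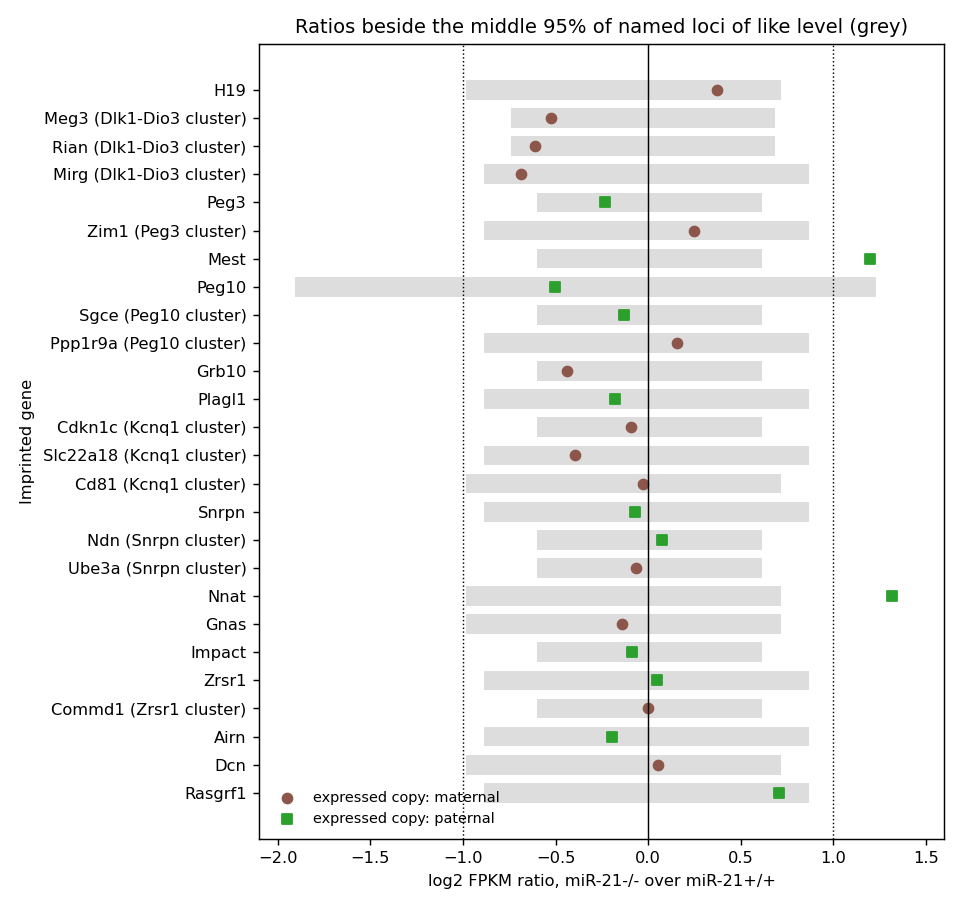
Log2 FPKM ratio of *miR-21-/-* over *miR-21+/+* for the 26 imprinted genes above 1 FPKM, listed by cluster. Circles mark genes listed as expressed from the maternal copy and squares those listed as expressed from the paternal copy. Grey bars give the middle 95% of ratios over named rows of the same class of mean FPKM, and dotted lines mark 2-fold. *Mest* (1.20) and *Nnat* (1.32) are the 2 points outside their bars.

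The long noncoding RNAs of the *Dlk1*-*Dio3* cluster were lower together. *Meg3*, *Rian* and *Mirg* are read in the same direction from the maternal copy and carry clusters of small nucleolar RNAs and microRNAs, and *Dlk1* and *Dio3* at the ends of the cluster are expressed from the paternal copy. *Meg3* was at 81.3 FPKM with miR-21 and 56.4 FPKM without it, a log2 ratio of −0.53. *Rian* was at 38.1 and 24.9 FPKM, a log2 ratio of −0.61. *Mirg* was at 6.84 and 4.25 FPKM, a log2 ratio of −0.69.

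All 3 were lower by 1.44-fold to 1.61-fold, and none left the middle 95% of named rows of its class. As low a ratio as theirs was held by 6.60% of named rows for *Meg3*, 4.44% for *Rian* and 4.03% for *Mirg*, each within its class of level. The proportions between them were similar in both genotypes. *Meg3* was 2.14 times as abundant as *Rian* in *miR-21+/+* glands and 2.26 times in *miR-21-/-* ones, and *Rian* was 5.56 and 5.86 times as abundant as *Mirg*. These genes lie next to each other and may be parts of 1 long transcript, so the 3 values are not independent. With both columns scaled to equal sums over all rows they were lower by 2-fold or more, at −1.16 for *Meg3*, −1.24 for *Rian* and −1.32 for *Mirg*. That scaling moved every row of the table by the same −0.63.

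Each of these rows merges the host RNA with microRNA genes. The *Meg3* row includes *Mir1906-1* and *Mir770*, the *Rian* row *Mir370* and AF357359, and the *Mirg* row *Mir3072*, *Mir369*, *Mir377*, *Mir409*, *Mir410* and *Mir412*. The mature sequences, from RefSeq, show what the 3 rows would yield on processing and set them beside the microRNA removed in these mice. Capitals mark the seed, bases 2 to 8, with which a microRNA pairs to its targets. The hairpins were matched to mm9, where each had 1 match and lay inside the host row.

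mmu-miR-21a-5p (absent from *miR-21-/-* mice, chr11:86397622-86397643, minus strand): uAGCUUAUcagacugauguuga
mmu-miR-770-5p (*Meg3*, chr12:110801920-110801941, plus strand): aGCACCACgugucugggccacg
mmu-miR-370-3p (*Rian*, chr12:110856515-110856536, plus strand): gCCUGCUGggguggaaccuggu
mmu-miR-377-3p (*Mirg*, chr12:110978763-110978784, plus strand): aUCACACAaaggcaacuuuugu
mmu-miR-409-3p (*Mirg*, chr12:110981414-110981435, plus strand): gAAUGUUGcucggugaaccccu
mmu-miR-369-3p (*Mirg*, chr12:110981676-110981696, plus strand): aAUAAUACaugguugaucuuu
mmu-miR-410-3p (*Mirg*, chr12:110981974-110981994, plus strand): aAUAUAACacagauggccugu

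No seed was shared between any of the 23 mature microRNAs compared, which were both arms of the hairpins named in these rows, of *Mir21a*, of *Mir675* in *H19* and of *Mir335* in *Mest*, with *Mir1906-1* giving 1 arm. Poly(A) RNA does not measure mature microRNAs. Of the 45 further rows of the cluster named for a microRNA, 37 were listed at 0 in both genotypes, and the highest value was 1.53 FPKM for *Mir485* in *miR-21+/+* glands. That row lies next to *Mirg* and was at 0.925 FPKM in *miR-21-/-* glands.

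The protein-coding genes at the ends of the cluster were too low to compare with these RNAs. *Dlk1* was at 0.484 and 0.562 FPKM. *Dio3*, the deiodinase that inactivates thyroid hormone, was at 0.030 FPKM with miR-21 and 0.341 FPKM without it, and *Rtl1*, a retrotransposon-derived gene between them, at 0.106 and 0.143 FPKM. The plain log2 ratio of *Dio3*, 3.52, was 0.38 with a pseudocount of 1 FPKM.

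**Figure D3:**
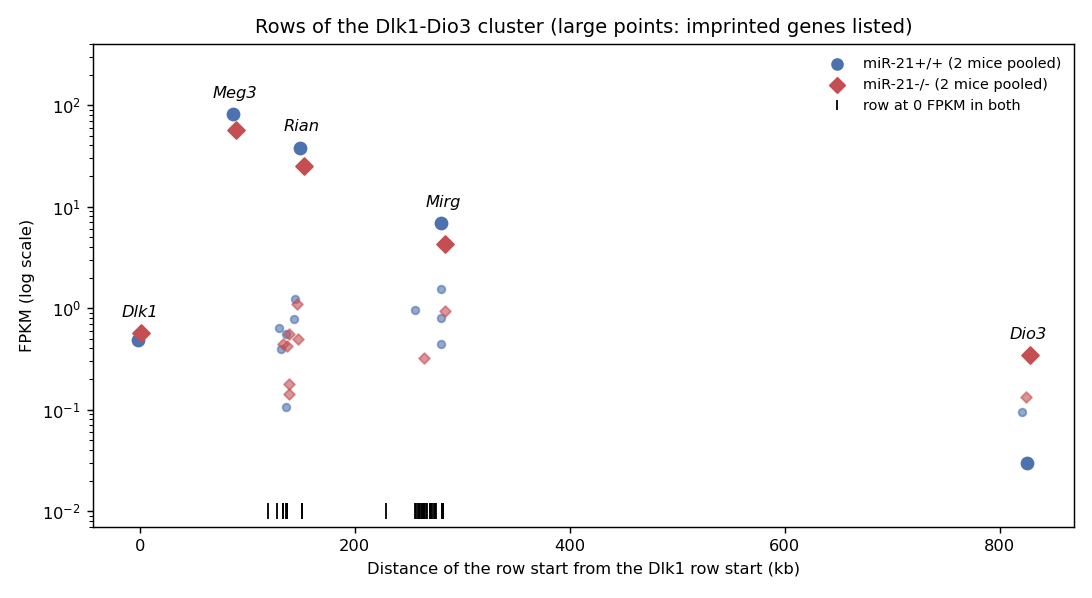
FPKM (log axis) of the rows of the *Dlk1*-*Dio3* cluster against their distance from the start of the *Dlk1* row in kb, with circles for *miR-21+/+* and diamonds for *miR-21-/-* glands, drawn slightly apart. Large points are *Dlk1*, *Meg3*, *Rian*, *Mirg* and *Dio3*, small points the other rows above 0, and ticks the rows at 0 in both. *Meg3*, *Rian* and *Mirg* stand above all other rows and are each lower in *miR-21-/-* glands.

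*H19* was higher where *Meg3* was lower. It is the maternally expressed noncoding RNA next to *Igf2*, holds back growth, and is abundant in embryonic tissue and muscle. It was at 87.4 FPKM with miR-21 and 113 FPKM without it, a log2 ratio of 0.37, which became −0.26 with both columns scaled to equal sums over all rows. Of the named rows above 100 FPKM, 7.51% had a ratio as high. *Igf2*, the paternally expressed growth factor gene that shares its enhancers, was at 5.66 and 4.53 FPKM, a log2 ratio of −0.32. *H19* is also the precursor of miR-675, which lies inside its row:

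mmu-miR-675-5p (*H19*, chr7:149763017-149763038, minus strand): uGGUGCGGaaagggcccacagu
mmu-miR-675-3p (*H19*, chr7:149762983-149763004, minus strand): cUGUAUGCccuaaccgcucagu

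Skeletal muscle markers were higher in 11 of 11, with a summed level of 1535 FPKM with miR-21 and 2555 FPKM without it and a median log2 ratio of 0.78, or 0.15 with equal sums over all rows. The part of muscle in the level of *H19*, or of *Meg3* and *Rian*, which were lower in the same glands, was not tested.

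The other noncoding RNAs differed little. *Airn*, which silences *Igf2r* on the paternal copy by being read across its promoter from the other strand, was at 7.15 and 6.23 FPKM, a log2 ratio of −0.20. *Igf2r*, the receptor that removes IGF2, was at 17.6 and 15.7 FPKM, a log2 ratio of −0.17. Their rows share coordinates and the genes overlap by 28354 bp. The library kit named in the methods does not mark strand, so reads of the 2 cannot be told apart where they overlap. *Kcnq1ot1*, the paternal RNA that silences the *Kcnq1* cluster, was at 0.348 and 0.389 FPKM, and *Nespas*, which is antisense to *Gnas*, at 0.033 and 0.032 FPKM. Over the 7 noncoding RNAs, 5 were above the minimum, 1 of them higher and 4 lower, with a median log2 ratio of −0.53. That median is the value of *Meg3*, and those of *Meg3*, *Rian* and *Mirg* are not independent.

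Most genes of a list tied to growth control were close to even or lower. *Grb10*, an adaptor that dampens signals of the insulin and IGF1 receptors, was at 30.3 FPKM with miR-21 and 22.4 FPKM without it, a log2 ratio of −0.44, and 4.59% of the 4157 named rows of its class had a ratio as low. *Plagl1*, a zinc finger factor that stops the cell cycle, was at 7.70 and 6.80 FPKM, a log2 ratio of −0.18. The other row of that name was at 3.57 and 2.62 FPKM, a log2 ratio of −0.45. *Cdkn1c*, the cyclin-dependent kinase inhibitor p57, was at 24.2 and 22.7 FPKM, a log2 ratio of −0.09. *Impact*, a regulator of the GCN2 kinase, was at 13.6 and 12.8 FPKM, a log2 ratio of −0.09. *Phlda2*, which limits growth of the placenta, was under 1 FPKM in both, at 0.537 and 0.287.

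*Rasgrf1*, an exchange factor that activates Ras and is known to promote growth, was higher, at 3.63 FPKM with miR-21 and 5.92 FPKM without it. Its log2 ratio was 0.70 (0.07 with equal sums over all rows), and 3.79% of the 4620 named rows between 3 and 10 FPKM had a ratio as high. Of the 9 genes in this list, which also includes *H19*, *Peg3* and *Gnas*, 8 were above the minimum, 2 of them higher and 6 lower, with a median log2 ratio of −0.12.

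Of the 5 imprinted genes with a mean above 100 FPKM, *Nnat* and *H19* are described above, and *Dcn*, *Gnas* and *Cd81* had log2 ratios within 0.25 of 0. *Dcn*, the collagen-binding proteoglycan decorin, is known to be imprinted in the placenta. It was at 809 and 839 FPKM, a log2 ratio of 0.05. *Gnas*, the stimulatory G protein alpha subunit, was at 509.9 and 462 FPKM, a log2 ratio of −0.14. *Cd81*, a tetraspanin, was at 225 and 221 FPKM, a log2 ratio of −0.03, in a row merged with *Tssc4*. Together the 38 genes held 0.579% of the FPKM sum of named rows in *miR-21+/+* glands and 0.692% in *miR-21-/-* ones. Without *Nnat*, the sum over the others above the minimum was 1999 FPKM with miR-21 and 1958 FPKM without it.

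**Figure D4:**
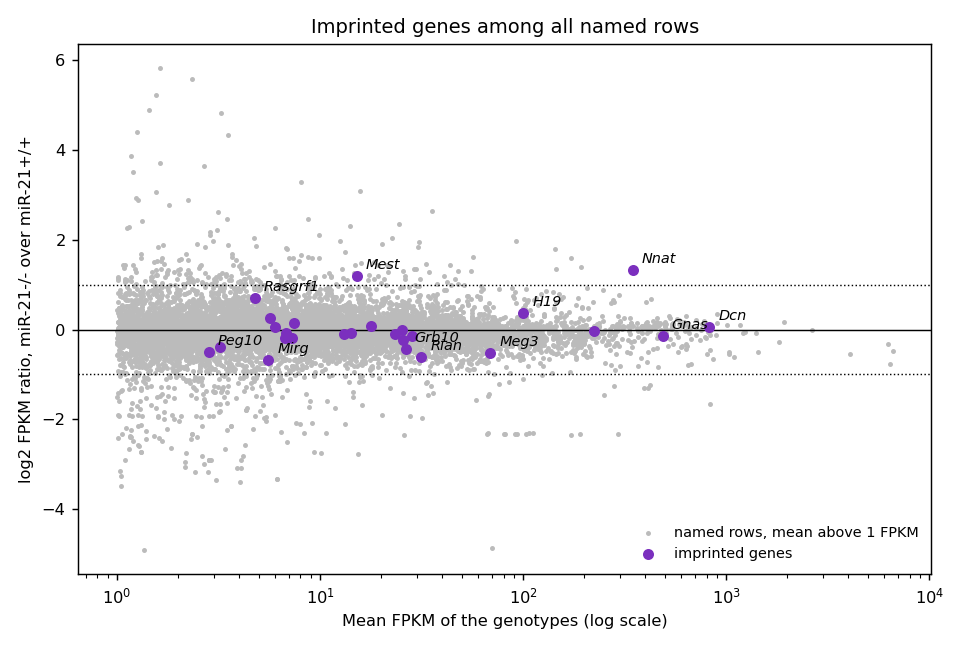
Log2 FPKM ratio of *miR-21-/-* over *miR-21+/+* against the mean FPKM of the genotypes (log axis) for the 13305 named rows above 1 FPKM (grey, except rows at 0 in a genotype) and the 26 imprinted genes (purple). Dotted lines mark 2-fold. *Nnat* and *Mest* lie above the upper line, and no imprinted gene lies below the lower line.

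The *Snrpn* cluster, which is tied to Prader-Willi and Angelman syndromes in people, was the most even of the clusters with 3 genes above the minimum. *Snrpn*, a spliceosome protein gene expressed from the paternal copy, was at 6.95 and 6.61 FPKM, a log2 ratio of −0.07. *Ube3a*, the ubiquitin ligase whose paternal copy is silent in neurons, was at 14.5 and 13.8 FPKM, a log2 ratio of −0.07. With *Ndn* the cluster ranged from −0.07 to 0.08. *Mkrn3*, which delays puberty, was at 0.570 and 0.842 FPKM, and *Magel2* was listed at 0 in both.

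In the *Peg10* cluster, *Sgce* and *Peg10* start next to each other on opposite strands and are both expressed from the paternal copy. *Peg10*, a gene derived from a retrotransposon and needed for the placenta, was at 3.33 and 2.35 FPKM, a log2 ratio of −0.50. *Sgce*, the epsilon-sarcoglycan gene, was at 29.8 and 27.2 FPKM, a log2 ratio of −0.13. *Ppp1r9a*, which encodes the actin-binding protein neurabin, was at 7.05 and 7.86 FPKM, a log2 ratio of 0.16. *Asb4* (0.441 and 0.536 FPKM) and *Calcr*, the calcitonin receptor gene (0.022 and 0.019 FPKM), were under the minimum. Of the 9 other rows of this window above the minimum, *Pon3* was at 51.1 and 35.2 FPKM, a log2 ratio of −0.54, and a row of 342 bp without a gene name was at 2.37 and 1.05 FPKM, a log2 ratio of −1.18.

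In the *Kcnq1* cluster all 3 genes above the minimum were lower, by −0.03 to −0.40 on the log2 scale. *Slc22a18*, an organic cation transporter, was at 3.67 and 2.79 FPKM, a log2 ratio of −0.40. Between *Ascl2* and *Cd81* lies *Tspan32*, a tetraspanin of blood cells, at 5.64 and 2.66 FPKM, a log2 ratio of −1.08. Lymphocyte markers were lower in 9 of 9, with a summed level of 151 and 68.7 FPKM and a median log2 ratio of −2.51. The row of *Cd79a*, merged with *Arhgef1*, held 70.3 and 48.3 FPKM of these sums at a log2 ratio of −0.54. The other 8 summed to 80.5 and 20.4 FPKM, with log2 ratios from −3.40 to −1.04. The part of lymphocytes in the level of *Tspan32* was not tested. *Kcnq1*, a potassium channel gene, was at 0.799 and 0.998 FPKM, and *Ascl2*, a placental transcription factor, at 0.237 and 0.502 FPKM.

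*Zim1*, a zinc finger gene of the *Peg3* cluster that is expressed from the maternal copy, was at 5.17 and 6.15 FPKM, a log2 ratio of 0.25, while *Usp29* was near 0 at 0.013 and 0.012 FPKM. *Apeg3*, antisense to *Peg3*, was at 9.72 and 7.80 FPKM, a log2 ratio of −0.32 beside −0.23 for *Peg3*. Their rows share coordinates and the kit does not mark strand, so their reads may not be fully separated. *Zrsr1* lies in an intron of *Commd1* on the other strand, and their rows share coordinates too, with the same limit. *Zrsr1*, a splicing factor gene, was at 5.86 and 6.07 FPKM and *Commd1*, a regulator of copper and NF-kappa-B, at 25.3 and 25.3 FPKM, with log2 ratios of 0.05 and 0.00.

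The expressed copy listed for each gene did not separate the genes by direction. That label is background knowledge and need not hold in mammary tissue. *Dcn* and *Ube3a*, for example, are described above by their imprinting in placenta and neurons. Of the 19 genes listed as expressed from the maternal copy, 14 were above the minimum, 4 higher and 10 lower, with a median log2 ratio of −0.08. Of the 19 listed as expressed from the paternal copy, 12 were above the minimum, 5 higher and 7 lower, with a median of −0.08. The 3 genes higher by 1.5-fold or more, *Nnat*, *Mest* and *Rasgrf1*, were all of the paternal group, and the 2 lower by that much, *Rian* and *Mirg*, of the maternal group. The summed level of the paternal group was 331 FPKM with miR-21 and 633 FPKM without it, and 132 and 137 FPKM without *Nnat*.

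Other imprinted genes were taken from a second list of 44 names, 26 of which were above the minimum. None was 2-fold higher, *Tspan32* was the 1 gene 2-fold lower, and the median log2 ratio was −0.06 with 9 higher and 17 lower. *Klf14*, which lies near *Mest* on chromosome 6 and is tied to fat cell size, was under the minimum at 0.177 and 0.739 FPKM.

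Most genes of the machinery that writes, keeps and reads imprints were near even, but *Uhrf1* and *Hells* were lower. Of 28 genes listed, 24 were above the minimum, with a median log2 ratio of −0.01, 10 higher and 14 lower. *Dnmt1*, which copies DNA methylation at cell division, was at 13.6 and 13.1 FPKM, and *Trim28*, the corepressor recruited to imprinted control regions, at 36.7 and 36.6 FPKM. *Ctcf*, the insulator protein of the *H19* control region, was at 19.8 and 19.3 FPKM. Of the 24, 2 were lower by 1.5-fold or more, beside 5.84% of all named rows, and none was higher by that much. They were *Uhrf1*, the partner of DNMT1, at 6.44 and 3.83 FPKM (log2 ratio −0.75), and *Hells*, a chromatin remodeler, at 2.95 and 1.91 FPKM (−0.62). *Zfp57*, the zinc finger gene that protects imprints in the embryo, was at 1.55 and 1.48 FPKM.

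Transcripts with a match to the miR-21 seed were looked for among the imprinted genes, as a description of their sequence. For every gene the longest 3′ UTR in the annotation was searched for ATAAGCT, which pairs with bases 2 to 8 of miR-21, and for TAAGCTA, which pairs with bases 2 to 7 and ends in A. Of 21 imprinted genes above the minimum with an annotated 3′ UTR, 3 (14.3%) held ATAAGCT, against 6.96% of 12835 gene names above the minimum. The 3 were *Peg10*, *Commd1* and *Grb10*, and *Ppp1r9a* held TAAGCTA alone. The median length searched was 1444 nt in the imprinted genes and 1142 nt in all. *Dio3*, under the minimum, also held TAAGCTA. The 5 sites are shown with the match in capitals, on the strand of the gene in mm9.

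*Peg10* (chr6:4709715-4709743, plus strand): ggataagataagATAAGCTAggataagtt
*Commd1* (chr11:22797558-22797586, minus strand): acataagccataATAAGCTAtattattct
*Grb10* (chr11:11832335-11832362, minus strand): agaggcacaagcATAAGCTggctttgag
*Ppp1r9a* (chr6:5112410-5112437, plus strand): tcggacagttttTAAGCTAtcaacaaat
*Dio3* (chr12:111519256-111519283, plus strand): tgtataaactttTAAGCTAcaataataa

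None of the 3 genes with ATAAGCT was higher without miR-21. *Peg10* and *Commd1* hold the form that is followed by A, and their log2 ratios were −0.50 and 0.00. The *Commd1* site lies outside the row measured, which begins at 22799728 on chromosome 11, so the level does not cover that part of the UTR. The ratio of *Grb10* was −0.44, and that of *Ppp1r9a* was 0.16. *Dio3* was higher, from 0.030 to 0.341 FPKM, a log2 ratio of 3.52 at levels too low to compare. Neither *Nnat* nor *Mest* had any of these matches in a 3′ UTR of 888 nt and 1288 nt, and *Rasgrf1* had none in 240 nt. Whether miR-21 acts on any of these genes was not tested.

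Promoters were searched for TGCCGC, the motif that ZFP57 binds when methylated, on both strands of the 300 bases from 250 before to 50 after each RefSeq start. RefSeq promoters were used for 30 of the 38 genes, which have 44 starts among them, and each matched mm9 at 1 place. The motif stood in 10 of the 44 (22.7%), against 11.6% of all 32851 promoters. The 10 belong to 9 genes, since *Mest* has overlapping windows that hold the same sites, and that stretch is counted more than once. The median number of CpG dinucleotides was 14 in the former and 7 in all promoters. The motif was present at *Mest*, *Nnat* and *Meg3*. A window of each is shown on the strand of the gene with the motif in capitals, read there as GCGGCA. Another site at *Mest* is not shown.

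*Mest* (chr6:30687971-30688000, plus strand): aggaggggcgctGCGGCAggatgggcgggt
*Nnat* (chr2:157385829-157385858, plus strand): gccaccggggctGCGGCAttgcgcccagca
*Meg3* (chr12:110779004-110779033, plus strand): gccaggggcactGCGGCAgatttttttttc

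*Mest* and *Nnat* were higher and *Meg3* lower, so the motif was found at genes of either direction. It was also found at *Plagl1*, *Zim1*, *Grb10*, *Calcr*, *Commd1* and *Snrpn*, whose log2 ratios among those above the minimum ran from −0.44 to 0.25. A match is a description of the sequence, and binding and methylation were not measured.

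Markers of other cell types also differed between the genotypes. Epithelial markers were present and higher in 10 of 10 in *miR-21-/-* glands, with a summed level of 697 and 957 FPKM and a median log2 ratio of 0.51, which became −0.12 with equal sums over all rows. Endothelial markers had a median of 0.07. None of the 68 markers in the 8 lists was at 0 in either genotype. The part of tissue makeup in the levels of the imprinted genes was not tested.

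**Figure D5:**
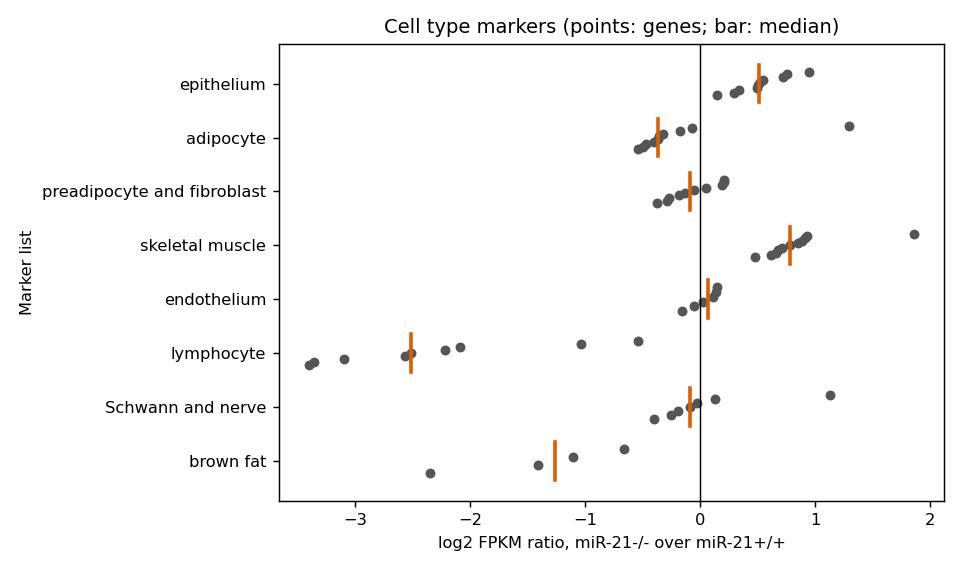
Log2 FPKM ratio of *miR-21-/-* over *miR-21+/+* for the markers above 1 FPKM of 8 cell types, with a point for each gene and a bar at the median of each list. Lymphocyte (median −2.51) and brown fat markers (−1.26) lie lowest, skeletal muscle markers (0.78) highest, and *Lep* (1.30) stands apart from the other adipocyte markers.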

How the data were processed

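RNA of 4 mice, 2 per genotype, was sequenced by the authors on an Illumina HiSeq as single-end reads of poly(A) RNA. The submitters' processing notes name CASAVA, TopHat and mm9, and the methods name Cufflinks for the FPKM values. Versions, gene annotation and normalization options are not given in the sources used here. The deposited table holds an FPKM value per genotype, pooled over its mice. Its other columns hold the authors' own comparison (fold change, test statistic, p-value, q-value, test status and call) and were not used.

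The table's starts count from 0, since 7398 annotated gene starts matched after adding 1 and 424 as printed, and coordinates here count from 1. The row of a name with the highest mean FPKM was used. *Meg3*, *Rian*, *Mirg* and *Cd81* are in merged rows, and *Plagl1* and *Kcnq1* have several rows. All imprinted genes of the list are named in the text. Genes of other lists are named where their mean is above 1 FPKM and the ratio reaches 1.5-fold, or where an imprinted gene's result needs them. *Pon3*, *Apeg3*, *Klf14*, *Rtl1*, *Adipoq*, *Dnmt1*, *Trim28*, *Ctcf* and *Zfp57* fall outside this rule and were chosen after their values were seen. The imprinted genes and the lists were chosen with earlier results of these data known.

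A limma fit had been planned for values per mouse and was not run, since none were used. The ratio and the 2-fold calls were tested on simulated data, as was the search for ATAAGCT. The medians and the search for TAAGCTA were not tested in that way. Sequences came from RefSeq tables (GRCm38.p6), were matched to mm9, and transcripts came from GENCODE vM1. Python 3.11.15, numpy 2.4.6, pandas 2.3.3 and matplotlib 3.10.9 were used. Alternatives were pseudocounts of 1 and 0.1 FPKM, other minimums and fold limits, 3 scalings, summed rows, and merged rows left out.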

Additional observations from a re-analysis of the deposited data

How the results depend on the processing

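No paired analysis was possible because mice of a genotype were pooled into 1 deposited value, which also left no way to omit a mouse or fit a replicate block. Depth could not be read from the FPKM values.

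With both columns scaled to equal sums over all rows, 6 imprinted genes passed 2-fold, 0 higher and 6 lower, against 2 higher and 0 lower unscaled, and the median log2 ratio was −0.71 against −0.08. This follows from the shift that the scaling gives every gene, which turns on rows without a gene name. The median over all named rows above the minimum was −0.66 under it, and their share passing 2-fold was not counted. The 6 were *Meg3*, *Rian*, *Mirg*, *Peg10* (−1.13), *Grb10* (−1.07) and *Slc22a18* (−1.03). Without a minimum level, 4 passed 2-fold, all 4 higher, since *Dio3* and *Ascl2* were added. At 1.5-fold, 5 passed, with 2 lower. Under the other alternatives tried, the count stayed at 2 and the median between −0.08 and 0.02. For single genes, an SD was estimated from the width of the middle 95% of log2 ratios of named rows of their class. This width gives an SD only if the ratios are normally distributed, which was not tested. Single genes moved by less than 1 such estimated SD under every alternative except equal sums over all rows, which moved 25 of 26.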
